A study of Zea mays with 14 samples.

Results

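The comparison described here sets the roots of a maize mutant in zmlrl5 against wild type (WT) roots, both from inbred line B73 and both from seedlings 3 days old. The rule takes the B73 zmlrl5 root group and the B73 WT root group, 2 libraries each, so 4 of the 14 libraries of the series, across all gene IDs. The labels call the root mutant a knock out. They record for WT root that the hairs had been scraped off, and record no such step in the titles of the zmlrl5 root libraries, although the treatment text shared by all samples describes scraping after a dip in liquid nitrogen. The other libraries used are 4 of root hair from inbred line W22 (2 WT, 2 zmlrl5, there called a knock down) and 6 of a B73 tissue set (2 each of root hair, root and aerial seedling parts). The 4 mutant-set hair libraries carry the cultivar label W22, although their growth text gives B73. The labels do not say whether libraries of a group came from separate seedling pools, so the p-values measure the spread between these libraries, which may be technical.

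LRL genes encode basic helix-loop-helix (bHLH) transcription factors named after the roothairless gene of Lotus japonicus. In Arabidopsis and Lotus they are needed for root hairs to grow, acting after the factors that fix which epidermal cells will form a hair. A root hair is a single epidermal cell that extends at its tip, through delivery of membrane and wall material, loosening of the wall and oxidant signalling, and it is a main site of phosphate, potassium and iron uptake.

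Polyadenylated RNA was read as raw counts for 39305 gene IDs. The WT root libraries held 12336633 and 17548079 counts and the zmlrl5 root libraries 21110577 and 18522039, so 3 counts corresponded to between 0.142 and 0.243 counts per 1000000 (CPM). Across genes, log2 CPM correlated at r = 0.988 between the WT root libraries, at 0.99 between the zmlrl5 root libraries and at 0.975 to 0.978 between the groups; genes are not independent replicates. Of the gene IDs, 25303 had enough counts to be tested, and 2160 of those carry a gene symbol in the name table used here. The symbol LRL5 is paired with no ID there, so the targeted transcript was not analysed here.

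Markers were read for what the root libraries contained. Root cap gene RCP1 stood at 0.466 and 0.377 CPM in WT root and at 0.0729 and 0.04 CPM in zmlrl5 root, against 86.3 and 81.4 CPM in the tissue-set root, on a scale set over the 14 libraries. It was not particular to root libraries: B73 root hair had 25.5 CPM on that scale. On the scale of the mutant-set libraries W22 root hair had 97.4 and 104 CPM in WT and 73.4 and 77.8 CPM in zmlrl5. This gene fell in zmlrl5 root by 7.31-fold from 17 to 3 counts (95% counting interval 2.12 to 38.9; adjusted p = 0.00606), with all 4 levels near the limit of the depth; the call was lost without WT root replicate 1 (adjusted p = 0.0558) or zmlrl5 root replicate 2 (adjusted p = 0.0717). The core histone list, which marks dividing cells, summed to 1423 and 1417 CPM in WT root, 1346 and 1272 CPM in zmlrl5 root, and 3005 and 2309 CPM in the tissue-set root, on the same scale. Neither the 9 core histone genes nor the 11 cyclin and kinase genes gave a call in either direction. Over all genes 4.27% were higher and 4.09% lower, so lists this short may hold no call at those shares. Of 13 DNA replication genes 1 was lower, the sliding clamp gene PCNA (log2 change -0.43, adjusted p = 0.0442). That call was lost without any of the 4 root libraries in turn, with log2 changes from -0.36 to -0.49. For the inbred line, 11 genes read 0 in all 6 B73 tissue-set libraries while reaching 10 CPM or more in both W22 hair groups. In all 4 root libraries 10 of the 11 stayed under 1 CPM and 1, GRMZM2G069905, stood at 7.04 and 5.7 CPM in WT root and 7.69 and 7.37 CPM in zmlrl5 root. The reverse rule, 0 counts in W22 root hair and 10 CPM or more in B73 root hair and root, found 0 genes. WT and zmlrl5 root resembled each other in the 11 genes. These were picked by their level in W22 hair, so a low level in root cannot tell the line from the tissue.

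Between zmlrl5 and WT root 1081 genes were higher (4.27% of those tested) and 1034 lower (4.09%) at an adjusted p under 0.05. A change of 2-fold or more was called for 284 higher genes (1.12%) and 420 lower ones (1.66%). The median log2 change over all genes tested was 0.02. The WT and zmlrl5 root levels did not overlap in 50.3% of the genes tested, so separate groups alone are common. Many of the strongest falls were in genes of root hairs. Among 83 genes lower by over 8-fold, 59 (71.1%) belonged to the hair-enriched list defined below, against 339 of the 25303 genes tested (1.34%). The 83 genes' median level dropped from 2.04 CPM in WT root to 0.061 CPM in zmlrl5 root. None of the 52 genes higher by over 8-fold belonged to that list; these were low genes, with a median of 0.0905 CPM in WT root and 1.53 CPM in zmlrl5 root. The counts of calls moved with the libraries fitted. Without 1 root library the higher genes numbered 440 to 837 and the lower genes 571 to 757. There were 440 higher genes without WT root replicate 1, 664 without WT root replicate 2, and 504 without zmlrl5 root replicate 1. There were 571 lower genes without WT root replicate 2 and 616 without zmlrl5 root replicate 2. Genes higher by 2-fold or more then numbered 163 without WT root replicate 1 and 181 without zmlrl5 root replicate 1. A fit of the 4 root libraries alone called 1818 higher and 1883 lower genes, and a fit of all 14 libraries 430 and 525. In the latter 46 of the 112 called genes named by rule lost their call, among genes described below pht1, NAR2.1, CesA-7, CesA12, CesA-9, bk2, CHI, PCNA, RPL10 and ABP1.

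**Figure D1:**
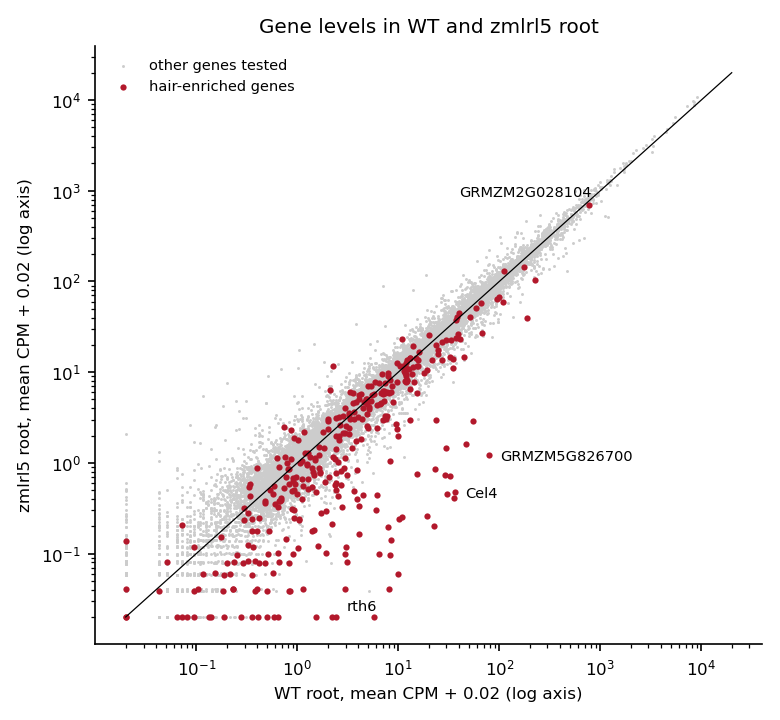
Mean level of each tested gene in WT root (horizontal) and zmlrl5 root (vertical), in CPM plus 0.02 on log axes, with the line of equal level and the hair-enriched genes in red. A tail of red points lies far below the line, down to genes with no count in zmlrl5 root such as rth6, while others such as GRMZM2G028104 stay close to it.

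Of the 4 cloned maize roothairless genes, 1 lost its transcript in zmlrl5 root and 3 did not pass the test. The gene rth6, which encodes a cellulose synthase-like D protein that makes wall glucan at the hair tip, stood at 1.97 and 2.85 CPM in WT root and at 0 in both zmlrl5 libraries. Its groups did not overlap: 96 counts in WT root stood against none in zmlrl5 root, at least 41.3-fold lower against a floor of 3 counts over the zmlrl5 group (adjusted p = 2.56e-09). The COBRA-like wall gene rth3 read 21.4 and 26.3 CPM in WT root and 26.3 and 20.8 CPM in zmlrl5 root, a log2 change of -0.02 ± 0.12 (SE; adjusted p = 0.975). Exocyst subunit gene rth1, whose product helps deliver vesicles to the plasma membrane, read 23.9 and 24 CPM in WT root and 20.9 and 24.7 CPM in zmlrl5 root, a log2 change of -0.07 ± 0.13 (adjusted p = 0.884). The WT and zmlrl5 levels of both genes overlapped. For rth5, which encodes an NADPH oxidase, WT root read 29.1 and 29.5 CPM and zmlrl5 root 38.6 and 33.1 CPM, a log2 change of 0.29 ± 0.10 with an adjusted p of 0.0596; without zmlrl5 root replicate 2 it passed the test at 0.40 (adjusted p = 0.0159). None of the 9 ROP GTPase and NADPH oxidase genes tested, the tip-growth signalling list that includes other rboh genes, gave a call. Over all genes 4.27% were higher and 4.09% lower, so a list this short may hold no call at those shares.

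Genes of root hairs were then followed as a list taken from other libraries: 351 IDs at least 32-fold higher in B73 root hair than in B73 root of the tissue set and at 10 CPM or more in hair. Of the 339 tested, 148 (43.7%) were lower in zmlrl5 root and 10 (2.95%) higher, against 4.09% and 4.27% of all genes, and their median log2 change was -0.75. The fall reached 2-fold or more in 114 of them. The 351 genes summed to 3847 and 4136 CPM in WT root and to 2686 and 2501 CPM in zmlrl5 root, with 3393 and 2802 CPM in the tissue-set root and 131600 and 131599 CPM in W22 WT root hair, on the scale of all 14 libraries. In WT root 13 and 10 of the IDs had no count, and in zmlrl5 root 36 and 38 had none. In bulk RNA, fewer hair cells, hair cells at another stage and less RNA per hair cell cannot be told apart, and neither can a difference in how completely hairs were removed from WT and mutant roots.

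The list did not fall as a block. Its log2 changes ran from -9.73 to 4.23. Levels were followed in the 225 genes with a mean of 1 CPM or more over the WT and zmlrl5 root groups together. Some genes reached it only through the group where they were higher. Among them were rth6 (2.41 CPM in WT root, 0 in zmlrl5 root) and glucA (0.719 CPM in WT root, 2.45 CPM in zmlrl5 root). The sizes of the end classes therefore depend on this limit. The other 114 tested genes lay under it, and of these 36 were called lower and none higher. Of the 225, 29 kept under 5% of the WT level, 22 kept 5% to 25%, 28 kept 25% to 50%, 92 kept 50% to 100%, and 54 stood above the WT level. The classes that kept less had larger hair over root differences in the tissue set, with a median log2 difference of 7.47 for the first class, 6.86 for the next and 5.66 for the last. Single genes departed from this, among them rth6, at 5.33 near the list's limit. Across these 225 genes the tissue-set difference and the zmlrl5 root change had a Spearman rho of -0.53, and across all 339 tested it was -0.47. These are descriptions, since genes share libraries and are not replicates. The first class stood in WT root at a median of 1.16% of its level in W22 WT root hair, and the class above the WT level at 6.67%. In W22 root hair, where the mutant is a knock down, the 29 genes had a median log2 change of -0.30, from -5.07 to 0.08. The medians there were similar in the next 3 classes, at -0.34, -0.19 and -0.23, and 0.11 in the class above the WT level. Calls in hair numbered 16 of the 29, and 16 of 22, 13 of 28, 49 of 92 and 21 of 54 in the other classes. Over all genes 10.1% were higher and 12.4% lower in hair, so a raised share of calls was not particular to the first class.

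**Figure D2:**
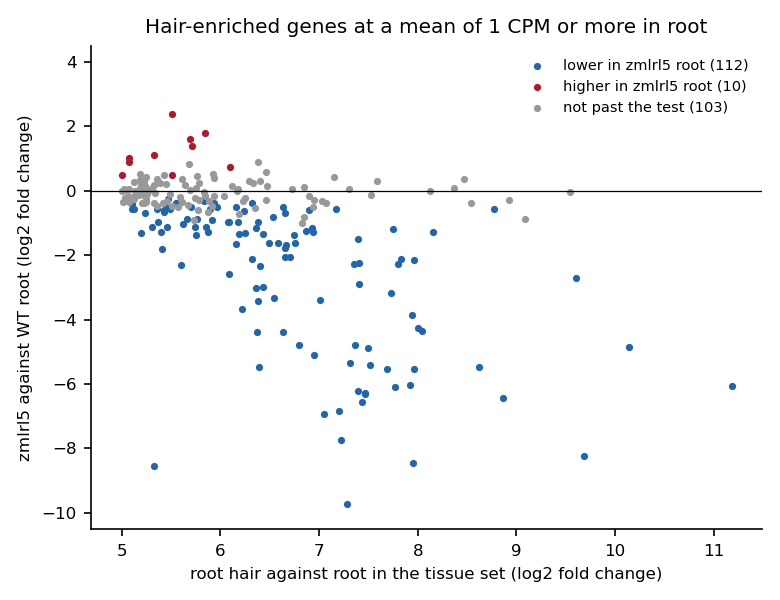
Each point is 1 of the 225 hair-enriched genes with a mean of 1 CPM or more over the 4 root libraries, placed by its root hair over root log2 fold change in the B73 tissue set (horizontal) and its zmlrl5 over WT root log2 fold change (vertical, fitted values, also for genes with no count). Colour marks 112 lower, 10 higher and 103 genes not past the test. Falls deepen on the whole to the right, with exceptions such as rth6 (-8.53 at 5.33) and GRMZM2G106462 (-0.05 at 9.54), and uncalled genes occur over most of the range.

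Among the genes that nearly vanished, Cel4, annotated as a cellulase, an enzyme class that cuts wall glucans, read 35.3 and 36.7 CPM in WT root and 0.383 and 0.543 CPM in zmlrl5 root. Both zmlrl5 libraries lay far under both WT libraries, at 1.29% of the WT mean, a log2 change of -6.27 ± 0.16 (adjusted p = 3.24e-23). The log2 change of the same gene in W22 root hair was -0.30 (adjusted p = 0.00118), and the difference between the root and hair changes passed the test (adjusted p = 1.15e-20). GRMZM2G143473 went from 5.47 and 5.87 CPM to no count, at least 95.1-fold lower (221 counts against 0). GRMZM2G128029 read 9.52 and 6.67 CPM in WT root and 0 and 0.0418 CPM in zmlrl5 root, a single count, so its 394-fold ratio has a counting interval of 70.1 to 15597. GRMZM2G149273 went from 9.83 and 10.1 CPM to 0.0383 and 0.0418 CPM, a 250-fold ratio with an interval of 68.8 to 2075. These were the 3 IDs with the largest falls among called genes at 5 CPM or more in WT root, and none has a symbol in the name table. Under that level rth6, GRMZM2G129935 and GRMZM2G170034, all without a count in zmlrl5 root, had fitted falls in the same range. GRMZM5G826700, picked here after its values were seen, had a higher level to lose: 75.9 and 82.9 CPM in WT root against 1.3 and 1.09 CPM in zmlrl5 root (log2 change -6.04 ± 0.13, adjusted p = 4.39e-25).

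The actin-depolymerizing factor genes ABP2 (adf2) and ABP1 (adf1), known from pollen, another tip-growing cell, also had no zmlrl5 root counts. ABP2 stood at 0.184 and 0.489 CPM in WT root and ABP1 at 0.43 and 0.0889 CPM, so few counts carry these calls: 14 against 0 for ABP2, at least 6.02-fold lower, and 9 against 0 for ABP1, at least 3.87-fold lower. The ABP1 call was lost without any of WT root replicate 1, zmlrl5 root replicate 1 and zmlrl5 root replicate 2 (adjusted p of 0.372, 0.124 and 0.0897), and the ABP2 call without WT root replicate 2 (adjusted p = 0.109). They were the only calls among 13 genes of the actin and vesicle list. The third family member, ABP3, read 458 and 442 CPM in WT root and 460 and 473 CPM in zmlrl5 root (log2 change 0.05, adjusted p = 0.802), and profilin gene PRO4 read 231 and 237 CPM against 232 and 236 CPM (log2 change 0.00).

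Picked by WT root level alone, the 6 most abundant hair-enriched genes had log2 changes from -2.26 to 0.24, so none was among those that nearly vanished. GRMZM2G028104, highest at 712 and 821 CPM, read 733 and 645 CPM in zmlrl5 root and did not pass the test (log2 change -0.15 ± 0.07, adjusted p = 0.263). GRMZM5G886185 fell from 187 and 188 CPM to 39.6 and 38.6 CPM (log2 change -2.26 ± 0.07, adjusted p = 9.17e-21). GRMZM2G048073 fell from 217 and 234 CPM to 105 and 102 CPM (log2 change -1.12). The groups overlapped in the first and were separate in the next 2. The other three were GRMZM2G041356 and GRMZM2G162359, with log2 changes of -0.88 and -0.26 (the latter with adjusted p = 0.277 without WT root replicate 2 and 0.178 without zmlrl5 root replicate 2), and GRMZM2G440003, which read 110 and 111 CPM in WT root and 134 and 126 CPM in zmlrl5 root (log2 change 0.24, adjusted p = 0.0764). By hair over root difference in the tissue set, GRMZM2G387828 stood above the other tested genes of the list (log2 11.48), at 0 CPM in both root groups. Genes were therefore picked by that difference among those with a mean of 1 CPM or more in root. There GRMZM2G009489 had the largest (log2 11.18) and went from 8.48 and 8.4 CPM to 0.115 and 0.125 CPM. GRMZM2G106462, almost as hair-specific (log2 9.54), read 1.17 and 0.934 CPM in WT root and 1.23 and 0.752 CPM in zmlrl5 root (log2 change -0.05, adjusted p = 0.979). GRMZM2G008029 differed between the zmlrl5 libraries themselves, at 1.95 and 19.1 CPM, with 20.4 and 17.7 CPM in WT root; it did not pass the test (log2 change -0.88, adjusted p = 0.144). Without zmlrl5 root replicate 2 it did (log2 change -3.27, adjusted p = 1.26e-20). Invertase gene IVR1, which splits sucrose and was chosen after its values were seen, read 57.7 and 60.1 CPM against 51.7 and 49.7 CPM (log2 change -0.22, adjusted p = 0.112).

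Transporters take phosphate, iron and potassium into root cells. All 3 phosphate transporter genes tested fell, against 4.09% of all genes. For pht2, WT root read 49.4 and 56.1 CPM and zmlrl5 root 17.4 and 14.7 CPM, groups far apart, a log2 change of -1.72 ± 0.10 (adjusted p = 1.82e-14). For pht9, WT root read 10.2 and 11.1 CPM and zmlrl5 root 3.56 and 3.47 CPM, a log2 change of -1.60 ± 0.13 (adjusted p = 5.96e-11). The fall of pht1 was smaller, from 88.7 and 101 CPM to 72.9 and 73.3 CPM (log2 change -0.38, adjusted p = 0.00701). The pht1 call was lost without WT root replicate 2 (adjusted p = 0.279) and without either zmlrl5 root library (adjusted p of 0.0865 and 0.0645), and against the tissue-set root its direction turned. The iron-phytosiderophore transporter gene ys1 fell from 4.42 and 5.47 CPM to 2.45 and 1.59 CPM (log2 change -1.30 ± 0.19, adjusted p = 1.26e-05), the only call among 7 iron genes. HAK1, a high-affinity potassium transporter gene, fell from 152 and 154 CPM to 86.1 and 81.2 CPM (log2 change -0.87 ± 0.08, adjusted p = 4.78e-10). HAK13 of the same family rose from 0 and 0.178 CPM to 1.76 and 1.55 CPM (adjusted p = 0.00094; adjusted p = 0.0614 without WT root replicate 1), and no other of the 24 potassium genes was called. In B73 root hair of the tissue set pht9, HAK1 and ys1 stood at 212, 937 and 135 CPM, above their tissue-set root levels of at most 15.4, 92.4 and 9.71 CPM.

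Nitrogen genes moved in both directions by less than 2-fold. Of 19 tested, 3 were higher (15.8%, against 4.27% of all genes) and 2 lower (10.5%, against 4.09%). Asparagine synthetase gene asn2 rose from 26 and 28.8 CPM to 51.2 and 47.8 CPM (log2 change 0.85 ± 0.12, adjusted p = 6.61e-06). NAR2.1, a partner protein of high-affinity nitrate transporters, fell from 65.4 and 74.6 CPM to 56 and 45.5 CPM (log2 change -0.47, adjusted p = 0.00057), a call lost without WT root replicate 2 (adjusted p = 0.0736) or zmlrl5 root replicate 2 (adjusted p = 0.057). Nitrite reductase gene NIR read 1.6 and 1.29 CPM in WT root and 2.11 and 1.55 CPM in zmlrl5 root (adjusted p = 0.534), and sum1, the gene of a uroporphyrinogen methyltransferase that makes the siroheme of that enzyme, read 2.52 and 2.76 CPM against 2.57 and 2.68 CPM (adjusted p = 0.994). In W22 zmlrl5 root hair these 2 genes fell by 3.08 and 4.17 on the log2 scale.

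**Figure D3:**
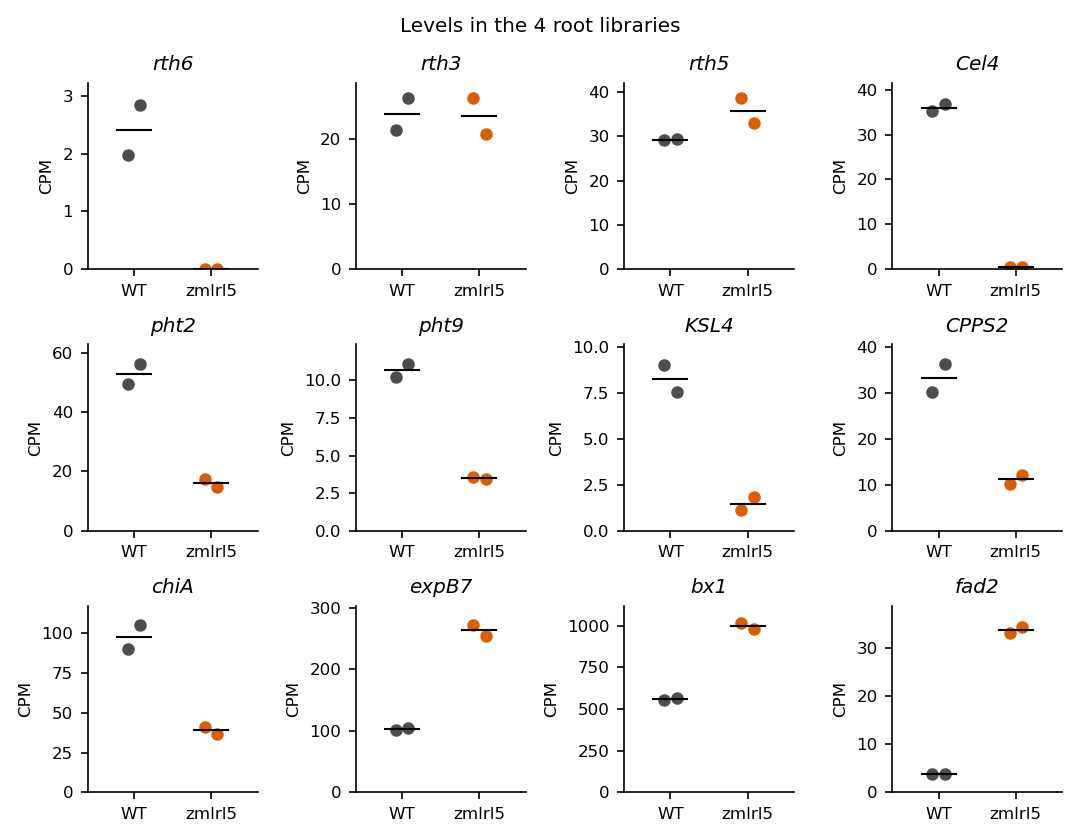
Levels (CPM, linear axes from 0) of 12 genes in the 2 WT and 2 zmlrl5 root libraries, 1 dot a library, with a line at each group's mean. The groups overlap in rth3 and are separate in the other panels, of which rth5 does not reach the test's threshold, while rth6 has no count in zmlrl5 root. Separate groups occurred in 50.3% of all genes tested.

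Of the genes far lower in root hair than in root, more were higher than lower in zmlrl5 root. Of 1229 tested genes at least 32-fold higher in root than in root hair of the tissue set, 222 (18.1%) were higher in zmlrl5 root and 45 (3.66%) lower, against 4.27% and 4.09% of all genes, with a median log2 change of 0.15. The list is not particular to root: on the scale of 14 libraries it summed to 131045 and 119374 CPM in the aerial seedling. The tissue-set root had 97057 and 82618 CPM. Among genes that loosen or build the wall, 6 of 9 expansins tested (66.7%) were higher and none lower, with a median log2 change of 0.70. For expB7, WT root read 102 and 104 CPM and zmlrl5 root 272 and 254 CPM (log2 change 1.36 ± 0.09, adjusted p = 4.15e-13). For expa1, WT root read 32.8 and 33.9 CPM and zmlrl5 root 77.3 and 77.7 CPM (log2 change 1.22 ± 0.09, adjusted p = 3.4e-11). For expB6 the levels were 140 and 148 CPM against 323 and 292 CPM (log2 change 1.09 ± 0.08, adjusted p = 1.3e-11). In each of these the lowest zmlrl5 library was above the highest WT library by a wide margin. Expansins expB3, expB4 and expA4 rose by 0.70, 0.68 and 1.14 on the log2 scale. The calls of expB4 and expA4 were lost without WT root replicate 1 (adjusted p of 0.272 and 0.211) or zmlrl5 root replicate 1 (adjusted p of 0.519 and 0.413), and that of expA4 also without either other library (adjusted p of 0.153 and 0.0628). Against the tissue-set root expB4, expA4 and expa1 turned to lower values (log2 changes -3.32, -0.54 and -0.23). Those of expA4 and expa1 did not pass the test there (adjusted p of 0.0785 and 0.21). Of 19 cellulose synthase and COBRA-like genes 4 (21.1%) were higher and none lower; the clearest was bk2, a COBRA-like gene needed for strong stems, at 324 and 359 CPM in WT root and 518 and 471 CPM in zmlrl5 root (log2 change 0.54 ± 0.08, adjusted p = 1.38e-05). The calls of CesA-7, CesA12 and CesA-9, subunits of cellulose synthase, were lost without WT root replicate 1 (adjusted p of 0.143, 0.197 and 0.183), and each was lost without at least 1 other library too. Cinnamoyl-CoA reductase gene ccr2, of the lignin pathway, rose from 76.3 and 82.2 CPM to 227 and 215 CPM (log2 change 1.48 ± 0.09, adjusted p = 1.62e-13), in a list of 18 with 2 higher and 2 lower (11.1% each).

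Benzoxazinoids are indole-derived defence compounds that grasses store as glucosides. Of 11 genes of their pathway tested, 7 were higher (63.6%, against 4.27% of all genes) and 1 lower (9.09%, against 4.09%). Gene bx1, whose enzyme makes the indole that starts the pathway, read 553 and 565 CPM in WT root and 1013 and 979 CPM in zmlrl5 root (log2 change 0.83 ± 0.09, adjusted p = 2.1e-08; adjusted p = 0.111 with DESeq2). The cytochrome P450 genes that oxidise the indole followed: bx2 rose from 218 and 231 CPM to 379 and 342 CPM (log2 change 0.68 ± 0.08, adjusted p = 1.14e-07) and BX3 from 679 and 704 CPM to 1015 and 932 CPM (log2 change 0.49 ± 0.07, adjusted p = 6.57e-06). BX4 and BX5 each rose by 0.32 on the log2 scale, and these calls were lost without WT root replicate 1 (adjusted p of 0.0771 and 0.0667) or zmlrl5 root replicate 1 (adjusted p of 0.116 and 0.0673). Igl, an indole-making lyase outside the core pathway, rose from 1.35 and 1.47 CPM to 4.48 and 3.97 CPM (log2 change 1.58, adjusted p = 0.00439), a call lost without WT root replicate 1, WT root replicate 2 or zmlrl5 root replicate 1 (adjusted p of 0.0972, 0.0816 and 0.13). Glucosyltransferase genes bx8 and bx9 did not pass the test (log2 changes 0.03 and -0.03). The exception was BX14, a methyltransferase gene of the last steps, which fell from 18.4 and 16.6 CPM to 4.33 and 4.97 CPM (log2 change -1.91 ± 0.13, adjusted p = 2.28e-12).

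Several other defence genes were lower. Maize makes antimicrobial diterpenoids, among them the dolabralexins, from a precursor that CPPS2 (an2), a copalyl diphosphate synthase, provides. CPPS2 read 30.3 and 36.4 CPM in WT root and 10.3 and 12.1 CPM in zmlrl5 root (log2 change -1.58 ± 0.13, adjusted p = 1.78e-10). The dolabralexin enzymes downstream fell with it: the kaurene synthase-like gene KSL4 read 9.03 and 7.56 CPM against 1.11 and 1.84 CPM (log2 change -2.49 ± 0.31, adjusted p = 5.84e-07), and the cytochrome P450 gene CYP71Z16 read 42.9 and 47.5 CPM against 13.9 and 13.4 CPM (log2 change -1.73 ± 0.12, adjusted p = 1.5e-12). These 3 genes were among the 10 symbols with the largest falls and belong to no list fixed here. Against the tissue-set root, where CYP71Z16 stood at 2.32 and 1.66 CPM beside 40.6 and 44.7 CPM in WT root on the scale of 14 libraries, its direction turned. Chitinases digest fungal cell walls; chiA fell from 90.2 and 105 CPM to 41.3 and 36.6 CPM (log2 change -1.33 ± 0.10, adjusted p = 1.06e-11) and chiI from 4.67 and 5.47 CPM to 1.07 and 1.13 CPM (log2 change -2.21 ± 0.25, adjusted p = 6.74e-08). Of 6 pathogenesis-related and chitinase genes in the list, which takes in chiA and not chiI, 4 were lower (66.7%, against 4.09% of all genes) and none higher. The fall reached 2-fold or more in 1 of them. Apart from these, class III peroxidase gene PER2 fell from 449 and 487 CPM to 131 and 131 CPM (log2 change -1.84 ± 0.07, adjusted p = 2.11e-19). Its list of 7 had 1 higher (14.3%, against 4.27% of all genes) and 2 lower (28.6%, against 4.09%). That list summed to 2537 and 2663 CPM in WT root and 35286 and 36860 CPM in W22 WT root hair, on the scale of 14 libraries.

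Glutathione transferases, which detoxify reactive compounds, moved in both directions: of 31 tested, 8 were lower (25.8%, against 4.09% of all genes) and 4 higher (12.9%, against 4.27%). The abundant gst30 read 536 and 543 CPM in WT root and 279 and 250 CPM in zmlrl5 root (log2 change -1.03 ± 0.08, adjusted p = 1.63e-11), and gst2 read 446 and 459 CPM against 211 and 204 CPM (log2 change -1.12 ± 0.07, adjusted p = 1.34e-13). GST38 and GST26 rose by 1.45 and 1.09 on the log2 scale, and gst1, the most abundant at 3465 and 3212 CPM in WT root, read 3163 and 3127 CPM in zmlrl5 root (adjusted p = 0.583). Of 32 genes in the jasmonate list, which was chosen by symbol and not by a known part in making jasmonate, 5 were lower (15.6%) and none higher. The lower ones were oxophytodienoate reductase genes opr1, opr2, opr3 and opr5 and the lipoxygenase gene lox4. The calls of opr2 and lox4 were lost without WT root replicate 2 (adjusted p of 0.0613 and 0.251), and that of lox4 also without zmlrl5 root replicate 2 (adjusted p = 0.0906). For opr1 the levels were 3.5 and 4.27 CPM against 1.07 and 1.05 CPM (log2 change -1.88 ± 0.34, adjusted p = 0.000207), and for the more abundant opr5 they were 239 and 228 CPM against 157 and 154 CPM (log2 change -0.59 ± 0.08, adjusted p = 1.11e-06). The pair known to make jasmonate in maize, opr7 and opr8, did not pass the test (log2 changes -0.28 and -0.08). Ethylene synthesis genes acs7 and ACO fell by 0.91 and 1.05 on the log2 scale, acs7 from 55.7 and 58.5 CPM to 33 and 27.6 CPM and ACO from 92.2 and 94.5 CPM to 48.6 and 41.3 CPM (adjusted p of 6.87e-07 and 1.09e-08), in a list of 36 with 1 higher (2.78%) and 2 lower (5.56%).

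Genes of the photosynthetic apparatus gave 6 higher and no lower calls among 15 tested (40% higher, against 4.27% of all genes), at levels far under those of green tissue. On the scale of 14 libraries the list summed to 181.6 and 192.4 CPM in WT root and 227.1 and 218.9 CPM in zmlrl5 root. The tissue-set root stood above both, at 470 and 398.2 CPM, and the aerial seedling had 4056 and 4126 CPM. In W22 zmlrl5 root hair 7 of the 15 were higher and 1 lower, against 10.1% and 12.4% of all genes. Light-harvesting gene Cab-m7 read 0.184 and 0.178 CPM in WT root and 8.35 and 6.94 CPM in zmlrl5 root (log2 change 5.35 ± 0.49, adjusted p = 1.33e-09), beside 766 CPM in the aerial seedling, on whose scale it was 0.175 and 0.168 CPM in WT root and 7.95 and 6.65 CPM in zmlrl5 root. The light-harvesting gene cp29 went from 0.799 and 0.533 CPM to 10.5 and 11.1 CPM (log2 change 4.05 ± 0.38, adjusted p = 2.21e-09), and the photosystem I subunit gene psaH from 0.922 and 0.889 CPM to 4.67 and 6.15 CPM (log2 change 2.57 ± 0.34, adjusted p = 1.4e-06). For psaN the rise was from 1 to 64 counts, a 49.6-fold ratio with a counting interval of 8.59 to 1989. Other members stayed near the floor in both groups, such as cab-m9 at 0.491 and 0.845 CPM against 0.996 and 1.05 CPM (adjusted p = 0.678), and the Rubisco small subunit gene rbcS (GRMZM2G098520) read 2.15 and 3.82 CPM against 4.86 and 3.68 CPM (adjusted p = 0.635). Protochlorophyllide reductase gene pcr1, of chlorophyll synthesis, rose from 4.24 and 2.76 CPM to 14.8 and 11.3 CPM (log2 change 1.92 ± 0.26, adjusted p = 2.79e-06). Over the 418 tested genes enriched in aerial parts, 69 (16.5%) were higher and 20 (4.78%) lower; the 653 genes of that list summed to 4006 and 4237 CPM in WT root and 4547 and 4172 CPM in zmlrl5 root, overlapping ranges, against 129830 and 123881 CPM in the aerial seedling. The part of green or light-exposed tissue in these calls was not tested.

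**Figure D4:**
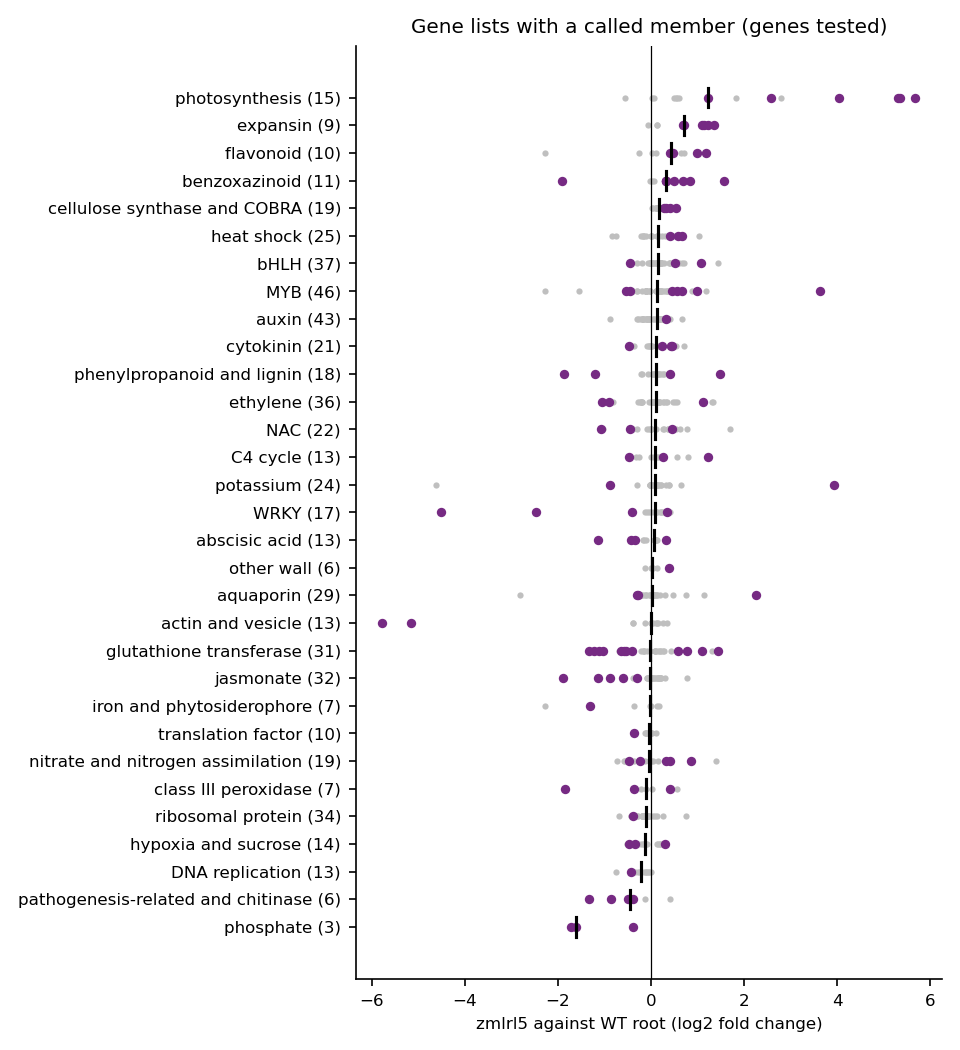
Each row is a gene list with at least 1 called member, with the number of genes tested in parentheses; dots are zmlrl5 over WT root log2 fold changes (fitted values), purple where the gene passed the test and grey where it did not, and the black bar is the list's median. Photosynthesis, expansin, flavonoid and benzoxazinoid lie at the top, and phosphate and the chitinase list at the bottom.

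Among the remaining symbols with the largest rises, fad2, a fatty acid desaturase symbol, went from 3.81 and 3.82 CPM to 33 and 34.3 CPM (log2 change 3.14 ± 0.16, adjusted p = 2.01e-15). Dehydrin gene dhn1, whose product protects drying cells, rose from 4.98 and 7.29 CPM to 22.4 and 21.7 CPM (log2 change 1.82 ± 0.16, adjusted p = 3.99e-10). The zinc finger homeodomain gene ZHD13 rose from 2.09 and 1.78 CPM to 9.96 and 7.98 CPM (log2 change 2.22 ± 0.29). Lsi6, of a family that in rice carries silicon, rose from 0.799 and 2.18 CPM to 8.12 and 6.77 CPM (log2 change 2.26 ± 0.34). The ID with the largest rise, GRMZM2G124684, has no symbol and went from 0.0614 and 0.133 CPM to 6.2 and 4.64 CPM (log2 change 5.63 ± 0.35, adjusted p = 2.31e-13). Separate levels in the groups were a condition of the rule that picked these 5, and 50.3% of all genes tested had them. Flavonoid genes gave 4 higher and no lower calls among 10 (40% higher, against 4.27% of all genes), including chalcone isomerase gene CHI at 385 and 386 CPM in WT root and 555 and 517 CPM in zmlrl5 root (log2 change 0.48 ± 0.07, adjusted p = 1.48e-05). Chaperone genes HSP90-1 and Hsp70 rose by 0.58 and 0.66 on the log2 scale, 2 of 3 higher calls among 25 heat shock genes (12%), and against the tissue-set root both turned to falls.

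Calls in the transcription factor and hormone lists are given beside 4.27% higher and 4.09% lower over all genes. Of 37 bHLH genes, the family of lrl5 itself, 2 were higher (5.41%) and 1 lower (2.7%); bHLH116 rose from 5.84 and 6.09 CPM to 13.2 and 11.8 CPM (log2 change 1.07 ± 0.20, adjusted p = 0.000352). Of 46 MYB genes 5 were higher (10.9%) and 2 lower (4.35%). Of 17 WRKY genes 1 was higher (5.88%) and 3 lower (17.6%), and of 22 NAC genes 1 was higher (4.55%) and 2 lower (9.09%). Of 43 auxin genes 1 was higher (2.33%) and none lower. Of 21 cytokinin genes 3 were higher (14.3%) and 1 lower (4.76%), and of 13 abscisic acid genes 1 was higher (7.69%) and 3 lower (23.1%). Most of these shares rest on 1 to 3 genes. Of 34 ribosomal protein genes 1 was lower, RPL10 (log2 change -0.38, adjusted p = 0.000886; adjusted p = 0.103 without WT root replicate 1), and none higher, with a list median of -0.11. In W22 zmlrl5 root hair 24 of the same 34 were lower, and for 16 of the 34 the change differed between root and hair.

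The root and root hair comparisons were set against each other in 1 fit. They share no library, and they differ in inbred line, in tissue and in the kind of mutant as labelled, which cannot be told apart. In W22 root hair 2562 genes were higher (10.1%) and 3140 lower (12.4%) in zmlrl5, and the change differed between root and hair for 3701 genes (14.6%; 1828 genes in a fit of all 14 libraries). Of the root calls 965 were also called in hair, 45.6% of the root calls and 16.9% of the hair calls. They comprised 276 genes higher in both, 366 lower in both, 171 higher in root and lower in hair, and 152 lower in root and higher in hair. Dehydrin gene dhn1 was higher in both (log2 change 1.52 in hair), and the glutathione transferase gene gst31 lower in both (-1.22 in root and -1.58 in hair). The diterpenoid and chitinase genes went opposite ways: in hair KSL4 rose by 2.94, CPPS2 by 1.23, CYP71Z16 by 0.36, chiA by 0.91 and chiI by 0.64 on the log2 scale, and each differed from its change in root (adjusted p of 2.18e-06, 1.36e-12, 3.34e-11, 1.14e-13 and 1.52e-08). Expansin genes expB7 and expa1 went the other way round, at -1.87 and -0.86 in hair (adjusted p of the difference 1.46e-10 and 5e-13). Gene expB4 rose in hair too (1.86, adjusted p = 5.77e-05) and the other 6 expansins tested gave no call there. The widest opposite pair among symbols was sfp5, at 17.4 and 19.4 CPM in WT root and 44.7 and 36.3 CPM in zmlrl5 root (log2 change 1.13), with a change of -5.15 in hair. Phosphate transporter genes pht2 and pht9 fell in both, by 0.49 and 0.56 in hair, less than in root (adjusted p of the difference 8.44e-09 and 3.62e-06).

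**Figure D5:**
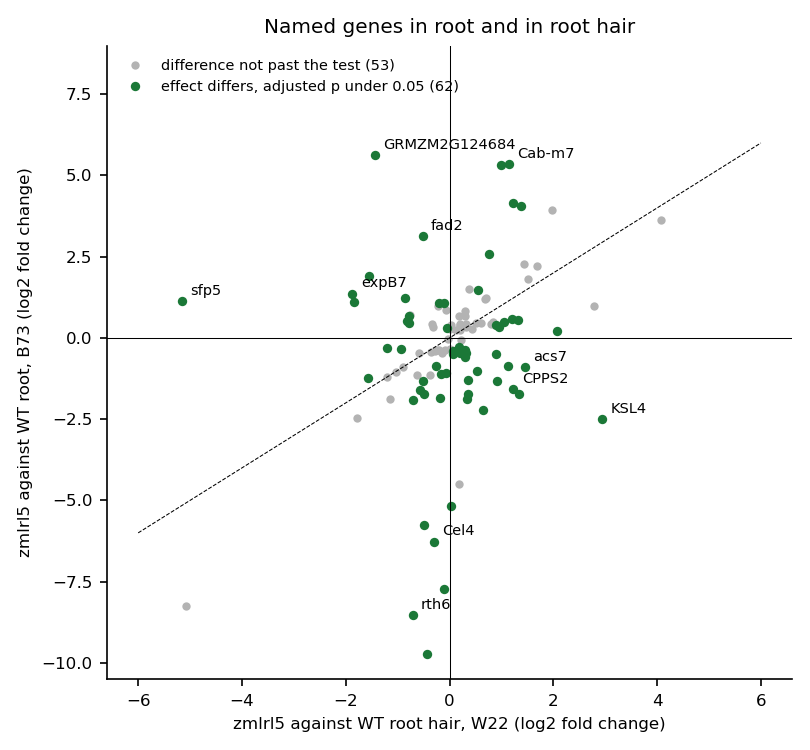
Log2 fold change of zmlrl5 over WT for the 115 genes picked by the naming rule, in W22 root hair (horizontal) and B73 root (vertical, fitted values, also for genes with no count); green marks 62 genes whose change differed between root and hair at an adjusted p under 0.05, and the dashed line is an equal change. Cel4 and rth6 lie far down at a small change in hair, KSL4 and CPPS2 lie at the lower right, and sfp5 and expB7 at the upper left.

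Among 15868 tested genes placed in the order of the name table, 8.79% were called, from 7.48% to 10.3% by chromosome. A window of 50 neighbouring genes held 4.42 calls on average and 14 at most, of which 8 were higher and 6 lower.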

How the data were processed

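Per the submitters' processing notes, reads were processed with TopHat2, HTSeq and DESeq; their versions, genome build, annotation and strand setting: not given in the sources used here. Overlapping and near-identical genes are therefore uncertain. The authors deposited 1 table of raw counts per gene ID for each library. The 6 tissue-set tables also hold 5 rows that name no gene, with 5.57% to 8.84% of the counts; these were left out, and the mutant-set tables have none. Symbols came from a RefSeq gene table of maize (NAM-5.0): of 39305 IDs, 18997 matched and 18476 matched once, and 2694 have a symbol other than a locus number.

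Counts of the 8 mutant-set libraries were fitted together with edgeR 4.0.16 in R 4.3.3: filterByExpr (minimum count 10), TMM scaling, quasi-likelihood test of zmlrl5 against WT root and of its difference from root hair, and Benjamini-Hochberg adjustment over all 25303 genes. The threshold was an adjusted p of 0.05, and SE is the log2 change over the root of F. CPM are scaled by TMM over these 8 libraries; tissue-set levels, and root levels said to be on that scale, use a scale over all 14 libraries, whose mutant and tissue sets were separate. Where a group had 0 to 3 counts, a bound against 3 counts over the group, or a ratio with an exact 95% interval, is given; these cover counting error only. The tissue lists came from a separate fit of the 6 tissue-set libraries (32-fold or more, adjusted p under 0.05, 10 CPM or more). Genes were named by rule: the 10 symbols and 3 IDs with the largest change each way, among called genes with separate groups and 5 CPM or more in the higher group; the roothairless genes; up to 4 called members of each list; and the 5 symbols with the smallest p for the difference between root and hair. This gave 115 genes, and any other gene was named after its values were seen. Lists were chosen by symbol, and the comparison and lists were chosen with earlier results of these data known. The fit was tested on simulated data. Alternatives were DESeq2 1.42.0, other scalings and filters, other sets of libraries, the replicate block, each root library left out, and the tissue-set root as reference. Promoter motifs were planned and not run, since no sequences were used here.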

Additional observations from a re-analysis of the deposited data

Results flagged for a closer look

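Each gene below was picked out because its zmlrl5 change differed between B73 root and W22 root hair in a test of the difference itself (adjusted p under 0.05 over all genes tested; 62 of the 115 genes named by the rule, beside 14.6% of all genes). The value in parentheses is the log2 change in root minus that in root hair. Inbred line, tissue and kind of mutant differ together between the comparisons and cannot be told apart.

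The following were lower in zmlrl5 root and higher in zmlrl5 root hair, each past the test: KSL4 (-5.43), chiI (-2.85), CYP71Z16 (-2.09), CPPS2 (-2.81), chiA (-2.24), ys1 (-1.66), acs7 (-2.36), PR-5 (-1.98), opr5 (-0.88), chitinase (-1.40), incw1 (-0.73) and ap1 (-0.66). The reverse, higher in root and lower in hair, held for HK1b1 (1.24), bHLH35 (1.32), EREB85 (2.95), sfp5 (6.28), expa1 (2.07), expB7 (3.23), pcr1 (3.49), fad2 (3.66) and GRMZM2G124684 (7.08).

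For genes with no count in zmlrl5 root the fitted difference depends on the prior count and is no bound: GRMZM2G143473 (-9.30), rth6 (-7.82), ABP2 (-5.28) and ABP1 (-5.19). Other genes fell in root and less, or not past the test, in hair: GRMZM2G149273 (-7.65), Cel4 (-5.97), BX14 (-1.20), opr1 (-2.22), PER2 (-1.65), SRA (-3.06), pht2 (-1.22), pht9 (-1.04), gst24 (-0.83), gst2 (-0.95), NAC12 (-1.01), gst30 (-1.54), HAK1 (-0.61), RR4 (-0.54), NAR2.1 (-0.66), NAC5 (-0.77), WRKY43 (-0.47) and TIP2-2 (-0.46). Genes that rose in root and less, or not past the test, in hair were ss2 (0.35), bx2 (1.47), bHLH116 (1.18), expB6 (1.29), ccr2 (0.94), psaH (1.80), cp29 (2.67), AC207722.2_FG009 (2.91), psaN (4.33) and Cab-m7 (4.21). Genes that fell less in root than in hair were gst31 (0.36), PDC (0.58) and PIP2-6 (0.92), and those that rose less in root than in hair were BURP3 (-1.85), aba1 (-0.62), gln3 (-0.49), CHI (-0.58), bk2 (-0.78) and HSP90-1 (-0.63).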

How the results depend on the processing

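Under DESeq2 size factors, upper-quartile scaling, DESeq2, no filter on low counts and a filter of 1 CPM in 2 libraries, the counts of calls stayed within 1.5 times the reported ones, and 18 of the 112 called genes named by the rule lost their call in at least 1 of these; none of the 2115 calls changed direction. A fit of the 4 root libraries alone called 1818 higher and 1883 lower genes, and a fit of all 14 libraries 430 higher and 525 lower, with 1828 genes whose change differed between root and hair. Leaving out each root library gave 440 to 837 higher and 571 to 757 lower genes, 163 to 244 higher and 304 to 373 lower by 2-fold or more, and 2688 to 2917 genes whose change differed; 50 of the 112 named genes lost their call without at least 1 library and 62 kept it. Lower hair-enriched genes numbered 115 to 133 in those 4 fits, lowest without WT root replicate 2. The limit of 1 CPM on the mean of both root groups was chosen after seeing the data; with 1 CPM in WT root alone it left 239 genes, of which 32 kept under 5% of the WT level and 51 stood above it, with a rho of -0.56. The cause of these shifts was not tested.

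Across all genes tested, same-numbered root libraries did not deviate together (r = -0.007). With 2 libraries a group, this cannot show whether the numbers mark a pairing that touches some of the genes. With the replicate block 742 genes were higher and 814 lower (221 and 382 by 2-fold or more), and 18 named genes lost their call. The replicate block in a fit of the 4 root libraries alone, chosen after seeing the data, gave 1612 higher and 1633 lower genes.

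Against the tissue-set root in place of WT root, which also swaps the library set, 8173 genes were higher (5044 by 2-fold or more) and 6082 lower (4066). Of the 2115 calls, 432 passed the test there in the opposite direction. The named genes that turned are listed by sign alone. Some did not pass the test there, for instance gst31 (adjusted p = 0.978), NAC12 (adjusted p = 0.563) and plr354a (adjusted p = 0.61). Named genes that turned to higher values there were WRKY104 (2.04), WRKY (1.84), CYP71Z16 (2.74), gst31 (0.01), LAC1 (0.36), NAC12 (0.16), ACO (0.67), gst30 (2.0), acs7 (1.40), PR-5 (0.62), opr5 (0.60), chitinase (0.50), bHLH94 (1.53), PYL5 (0.85), PR10 (1.21), pht1 (1.84) and PYL7 (0.57). Those that turned to lower values were ss2 (-0.30), plr354a (-0.11), gln3 (-0.30), CesA-9 (-0.71), Lac1 (-0.89), hsp1 (-1.18), MYB1_2 (-0.15), HSP90-1 (-1.59), Hsp70 (-1.50), MYB165 (-0.56), bHLH116 (-0.23), EREB85 (-1.10), expa1 (-0.23) and C4ppdkZm1 (-0.65), and, outside the naming rule, expB4 (-3.32) and expA4 (-0.54). Genes uncalled against WT root turned to higher calls there: IVR1 (1.39), GRMZM2G028104 (0.62), GRMZM2G008029 (1.82) and GRMZM2G106462 (2.40). Of the hair-enriched genes, listed for their low level in that root, 88 were then higher and 146 lower. The cause was not tested. Depth limits genes under about 0.142 to 0.243 CPM, the level of 3 counts in a root library.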
